A study of Homo sapiens with 10 samples.

Results

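The genes described here encode lysosomal hydrolases, lysosomal membrane proteins, V-ATPase subunits, the transcription factors TFEB and TFE3, and autophagy proteins. They are the 43 gene IDs, out of 57736 in the count table, that matched a fixed list of 43 gene symbols. The list was drawn up by function: 10 cathepsins, 17 other hydrolases counted with the activator precursor PSAP, 8 membrane or cholesterol export proteins, 3 V-ATPase subunits, 2 transcription factors and 3 autophagy proteins. All 43 had reads in every sample, and all 43 passed the filter on low counts.

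RNA was isolated from IMR90, a widely used line of human fetal lung fibroblasts, and sequenced in 5 groups of 2 samples. The mutant knock-in, wild type knock-in and METTL3 knockout groups are labelled as senescent cells with METTL3 knocked out, and the knock-ins then received METTL3 in a mutant or a wild type form. The senescent control had a control knockout. The control group was not senescent, and its column headers name the same control siRNA (siCTR) as those of the senescent control. Per the labels' protocols, senescence followed a retrovirus carrying RAS and control cells received its empty vector. The siRNA was given on day 4 after that infection, repeated on the next day with a lentivirus carrying the gene, and cells were harvested 48 hours later. Knockout is the word of the sample titles for this siRNA treatment. The protocol text names METTL14 where titles and column headers name METTL3. The mutation is not stated in the labels. The METTL3 knockout column headers hold vec where the knock-in headers hold MT or WT, and the senescent control headers hold none of these. Whether vec means an empty lentivirus, and whether senescent control cells received one, is not stated. An effect of the lentivirus itself therefore cannot be told apart from that of METTL3. Each lentiviral METTL3 was expressed far above the endogenous gene. Nothing in the labels shows that the 2 samples of a group were cultured separately, and p-values may therefore reflect technical spread alone.

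Lysosomes are acidic organelles in which hydrolases break down protein, glycan and lipid delivered by endocytosis and autophagy. The V-ATPase pumps in the protons these enzymes need, membrane proteins such as LAMP1 and LAMP2 line the organelle, and NPC1 with NPC2 carries freed cholesterol out. TFEB and TFE3, which mTORC1 holds in the cytoplasm when nutrients are plentiful, switch on many lysosomal and autophagy genes through a promoter sequence known as the CLEAR element. Senescent cells are known for a large lysosomal compartment, and their usual stain detects lysosomal β-galactosidase, the product of GLB1. METTL3 is the catalytic subunit of the enzyme that places N6-methyladenosine on mRNA.

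Total counts ran from 16293975 to 23570266 per sample. METTL3 checked the labels: it stood at 114107 and 147774 CPM in the mutant knock-in, 58385 and 58125 CPM in the wild type knock-in, 23.2 and 28.9 CPM in the METTL3 knockout, 47.3 and 57.3 CPM in the senescent control, and 72.7 and 81.4 CPM in the control. CPM is the count scaled to a common library total. The METTL3 knockout level was 49.8% of that of the senescent control by the fitted log2 difference. METTL14, which the protocol text names, was not called at adjusted p under 0.05 in any of the 7 comparisons. Its mean was 29.2 CPM in the mutant knock-in, 30.7 CPM in the wild type knock-in and 29.5 CPM in the METTL3 knockout. The senescent control had a mean of 25.8 CPM and the control 23.9 CPM. Markers of senescence, named after their values were seen, differed among the groups labelled senescent. The cell cycle inhibitor CDKN1A had 525 and 451 CPM in the mutant knock-in, 835 and 907 CPM in the wild type knock-in, 741 and 726 CPM in the METTL3 knockout, 936 and 925 CPM in the senescent control, and 547 and 487 CPM in the control, so that mutant knock-in and control samples overlapped. CDKN2A, which encodes the inhibitor p16, had 37.2 and 38.1 CPM in the mutant knock-in, 39.1 and 43.6 CPM in the wild type knock-in, 37.5 and 39.1 CPM in the METTL3 knockout, 55.7 and 59.1 CPM in the senescent control, and 37.6 and 34.4 CPM in the control, and both the mutant knock-in and the METTL3 knockout overlapped with the control. HRAS was higher in the senescent control than in the control (log2 difference 2.06 ± 0.11, adjusted p = 4.3e-08) but also differed among the senescent groups. It had 29.8 and 23.7 CPM in the mutant knock-in, 48.7 and 43.4 CPM in the wild type knock-in and 40.8 and 39.5 CPM in the METTL3 knockout. The senescent control had 61.0 and 61.3 CPM and the control 14.8 and 14.6 CPM. By edgeR's quasi-likelihood test, HRAS in the METTL3 knockout differed from the senescent control by -0.61 ± 0.11 (log2), adjusted p = 0.0021. The summed level of 9 fibroblast markers also differed, at 6363 to 7213 CPM in the mutant knock-in, 9315 to 9770 CPM in the wild type knock-in, 11358 to 12014 CPM in the METTL3 knockout, 11960 to 12696 CPM in the senescent control and 17125 to 21474 CPM in the control. The sum leans on abundant markers such as VIM (2992 to 8540 CPM over all samples), and the 9 did not all move alike. Relative to the senescent control, 8 were lower and 1 higher at adjusted p under 0.05 in the mutant knock-in (all genes tested: 26.3% and 27.0%). There were 6 lower and 1 higher in the wild type knock-in (19.1% and 20.8%), and 1 lower and 2 higher in the METTL3 knockout (8.62% and 7.17%). The part of these differences in the results below was not tested. In bulk RNA, a change in the number of cells of a kind and a change in RNA per cell cannot be told apart.

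As a share of all counts other than METTL3, the 43 genes took 0.766% and 0.772% in the mutant knock-in, 0.817% and 0.843% in the wild type knock-in, 0.602% and 0.617% in the METTL3 knockout, 0.720% and 0.724% in the senescent control, and 0.677% and 0.615% in the control. Control 2 lay between the 2 METTL3 knockout samples, which were otherwise the lowest, and all 4 knock-in samples lay above the senescent control. Per kilobase of exon, the highest mean levels over the 5 groups were 186 CPM per kb for PSAP, 135 CPM per kb for CD63, 121 CPM per kb for CTSB, 95.1 CPM per kb for SQSTM1 and 93.3 CPM per kb for LAMP1. The lowest were 0.83 CPM per kb for CTSS, 0.47 CPM per kb for TFEB and 0.35 CPM per kb for CTSH. Of the 43 genes, 23 share exon bases with another gene in the GENCODE annotation used for these lengths. The sources used here do not give the strand setting of the authors' counting, so values of these genes may hold reads of a neighbour. Protein-coding partners on the same strand include AC068580.4 (41.7% of the exon bases of CTSD), AC138894.1 (25.2% of CLN3) and AC009690.1 (4.89% of HEXA). AC009690.1 had mean levels of 0.98 CPM in the mutant knock-in, 0.41 CPM in the wild type knock-in and 0 CPM in the METTL3 knockout.

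**Figure D1:**
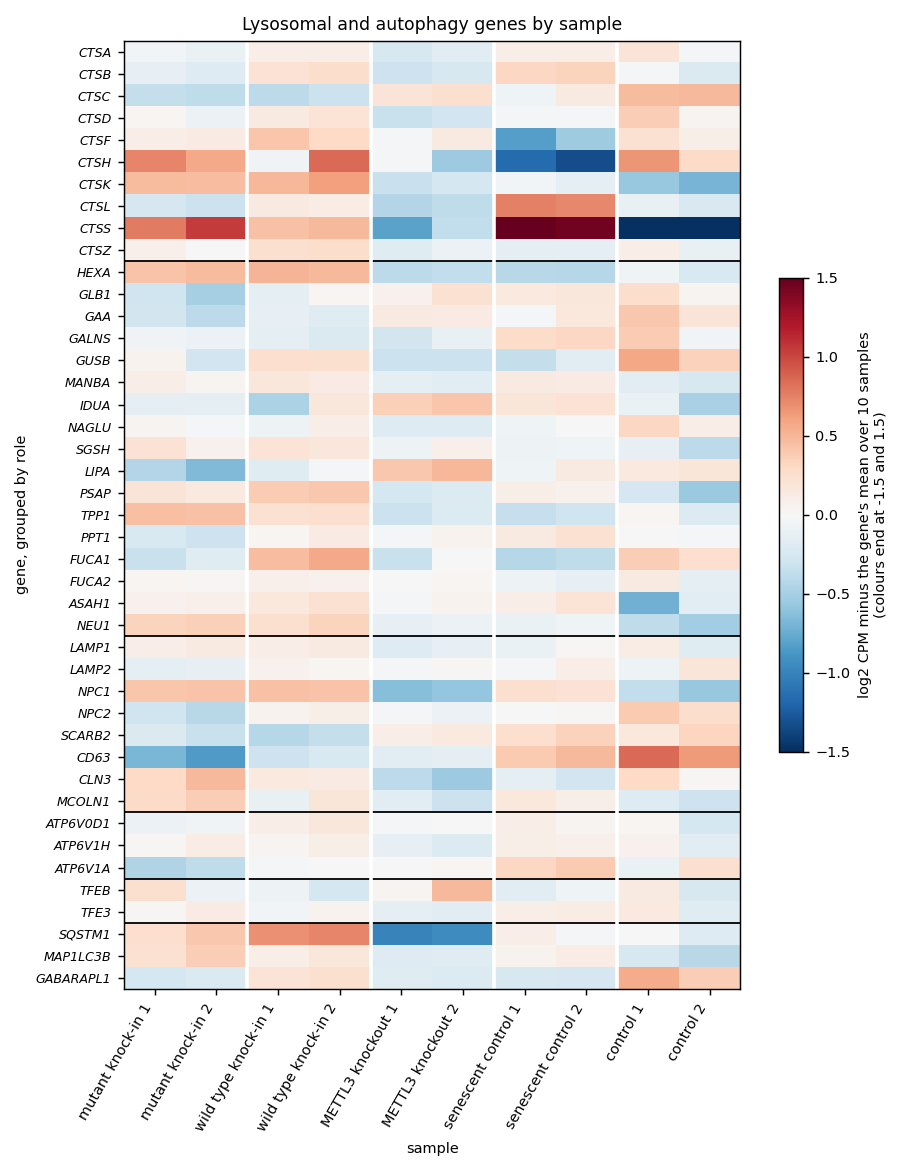
Level of each of the 43 genes (down the page, grouped by role) in each of the 10 samples (across), as log2 CPM minus the gene's mean over the samples, with red above and blue below that mean. CTSS and CTSL were highest in the 2 senescent control samples, and SQSTM1 and NPC1 were lowest in the METTL3 knockout samples. The 2 samples of a group had similar colours for most genes.

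METTL3 knockout cells, with METTL3 mRNA at 49.8% of the senescent control level, were compared with that control to see how these genes differed. The proteases CTSB, CTSL and CTSS, the cholesterol exporter NPC1, the tetraspanin CD63 and the autophagy receptor SQSTM1 were lower in the knockout. Among the 43 genes, 11 fell (25.6%) and 2 rose (4.65%) at adjusted p under 0.05, against a background over all 16760 genes tested of 8.62% lower and 7.17% higher. The median log2 difference was -0.14 over the 43 genes and 0.01 over all genes tested. CTSB, CTSL, CTSS, NPC1, CD63 and SQSTM1 fell in the test over all 10 samples and under each of 18 alternative settings. The calls of CTSA, CTSF, GALNS, MANBA, LIPA, MCOLN1 and ATP6V1A were each lost when at least 1 sample was left out (among senescent control 1 or 2, METTL3 knockout 1 or 2, wild type knock-in 1 or 2 or mutant knock-in 1 or 2), at adjusted p values there of 0.0508 to 0.32. The number called was 6 without senescent control 1, 8 without senescent control 2, 7 without METTL3 knockout 1 and 6 without METTL3 knockout 2. It was 20 without control 2, which is in neither group, and 25 when the test held only the 4 samples of the 2 groups.

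The wild type knock-in, with METTL3 far above the endogenous level, was set against the METTL3 knockout, and many of the genes were higher in the knock-in. Of the 43 genes, 20 rose (46.5%) and 3 fell (6.98%) in the wild type knock-in, against a background of 18.5% higher and 14.8% lower. The median was 0.29 over the 43 genes and 0.02 over all genes tested. CTSB, CTSK, CTSL, HEXA, NPC1, PSAP, TPP1, CLN3 and SQSTM1 rose, and CTSC, LIPA and SCARB2 fell, under all settings. The calls of LAMP1, CTSA, MANBA, CTSD, CTSS, CTSZ, GUSB, FUCA1, NEU1, MAP1LC3B and GABARAPL1 were each lost when at least 1 sample was left out (among senescent control 1 or 2, METTL3 knockout 1 or 2, wild type knock-in 1 or 2 or mutant knock-in 1 or 2), at adjusted p values there of 0.0502 to 0.28. The number called was 13 without METTL3 knockout 1 and 14 without wild type knock-in 2. This comparison shares the METTL3 knockout samples with the one above, so the 2 are not independent.

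The mutant knock-in differed from the METTL3 knockout in both directions. In it, 15 of the 43 genes rose (34.9%) and 10 fell (23.3%), against a background of 24.1% higher and 24.3% lower. The median was 0.14 over the 43 genes and 0.01 over all genes tested. CTSK, CTSS, HEXA, NPC1, TPP1, CLN3, MCOLN1, NEU1, SQSTM1 and MAP1LC3B rose under all settings. CTSC, GLB1, GAA, LIPA, SCARB2, CD63 and ATP6V1A fell under all settings. The calls of LAMP1, CTSD, CTSH, MANBA, IDUA, NPC2, PSAP and PPT1 were each lost when at least 1 sample was left out (among senescent control 1 or 2, METTL3 knockout 1 or 2, wild type knock-in 1 or 2 or mutant knock-in 1 or 2), at adjusted p values there of 0.0509 to 0.25. The share that fell was close to that of all genes tested. This comparison, too, uses the METTL3 knockout samples.

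Between the knock-ins, 10 of the 43 genes (23.3%) were lower in the mutant than in the wild type knock-in and none was higher, by edgeR's quasi-likelihood test. This comparison shares samples with those above. The background was 7.39% lower and 5.16% higher. The median was -0.09 over the 43 genes and 0.00 over all genes tested. At an unadjusted p under 0.05, 14 were lower and 3 were higher, and DESeq2 called 9 lower and 0 higher. The background shares are those of the main test at adjusted p under 0.05. They do not apply to these counts or to those under other settings below. The 10 were CTSB, CTSL, LIPA, PPT1, FUCA1, NPC2, CD63, ATP6V1A, SQSTM1 and GABARAPL1, with log2 differences from -0.78 for FUCA1 to -0.35 for PPT1. None of these calls held under every setting. None was left without wild type knock-in 2 or without mutant knock-in 2, and 3 were left without mutant knock-in 1, while 20 genes were called without control 1 or without control 2. Adjusted p values reached 0.23 for LIPA without mutant knock-in 2.

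Between the senescent control and the control the 43 genes differed in both directions, in shares near those of all genes tested. In the senescent control, 11 rose (25.6%) and 10 fell (23.3%) relative to the control, against a background of 19.7% higher and 25.3% lower. The median was 0.01 over the 43 genes and -0.03 over all genes tested. CTSB, CTSK, CTSL, CTSS, MANBA, PSAP, NEU1, NPC1 and MAP1LC3B rose under all settings. CTSF, CTSH, GUSB, FUCA1 and GABARAPL1 fell under all settings. The calls of HEXA, CD63, CLN3, CTSC, NPC2, MCOLN1 and ASAH1 were each lost when at least 1 sample was left out (among control 1, senescent control 1 or 2 or METTL3 knockout 1 or 2), at adjusted p values there of 0.0575 to 0.22. The 2 control samples were less alike than those of any other group.

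Relative to the senescent control, the wild type knock-in had 13 of the 43 genes higher (30.2%) and 7 lower (16.3%), against a background of 20.8% higher and 19.1% lower. The mutant knock-in had 8 higher (18.6%) and 13 lower (30.2%), against 27.0% higher and 26.3% lower over all genes tested. With upper-quartile scaling, which moved the median of all genes tested to 0.13, this split was 13 higher and 11 lower. Medians over the 43 genes were 0.05 in the wild type knock-in and 0.00 in the mutant knock-in, and those over all genes tested were 0.03 and 0.04. The wild type knock-in was called higher under all settings for CTSF, CTSH, CTSK, HEXA, TPP1, FUCA1, SQSTM1 and GABARAPL1. It was lower under all settings for CTSL, CTSS, GALNS, SCARB2 and CD63. The mutant knock-in was called higher under all settings for CTSF, CTSH, CTSK, HEXA, TPP1, CLN3 and NEU1. It was lower under all settings for CTSB, CTSC, CTSL, GLB1, NPC2, LIPA, SCARB2, CD63, PPT1 and ATP6V1A. Without senescent control 2 the number called in the wild type knock-in was 13. For the wild type knock-in, the calls of CTSZ, GUSB, PSAP, CLN3, ATP6V1A, NEU1 and CTSC were each lost when at least 1 sample was left out (among senescent control 1 or 2, METTL3 knockout 1 or 2, wild type knock-in 1 or 2 or mutant knock-in 2), at adjusted p values there of 0.0502 to 0.27. In the mutant knock-in, the calls of CTSS, GALNS, SQSTM1 and GAA were each lost when at least 1 sample was left out (among senescent control 1 or 2, METTL3 knockout 1 or 2 or mutant knock-in 1 or 2), at adjusted p values there of 0.0548 to 0.30.

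**Figure D2:**
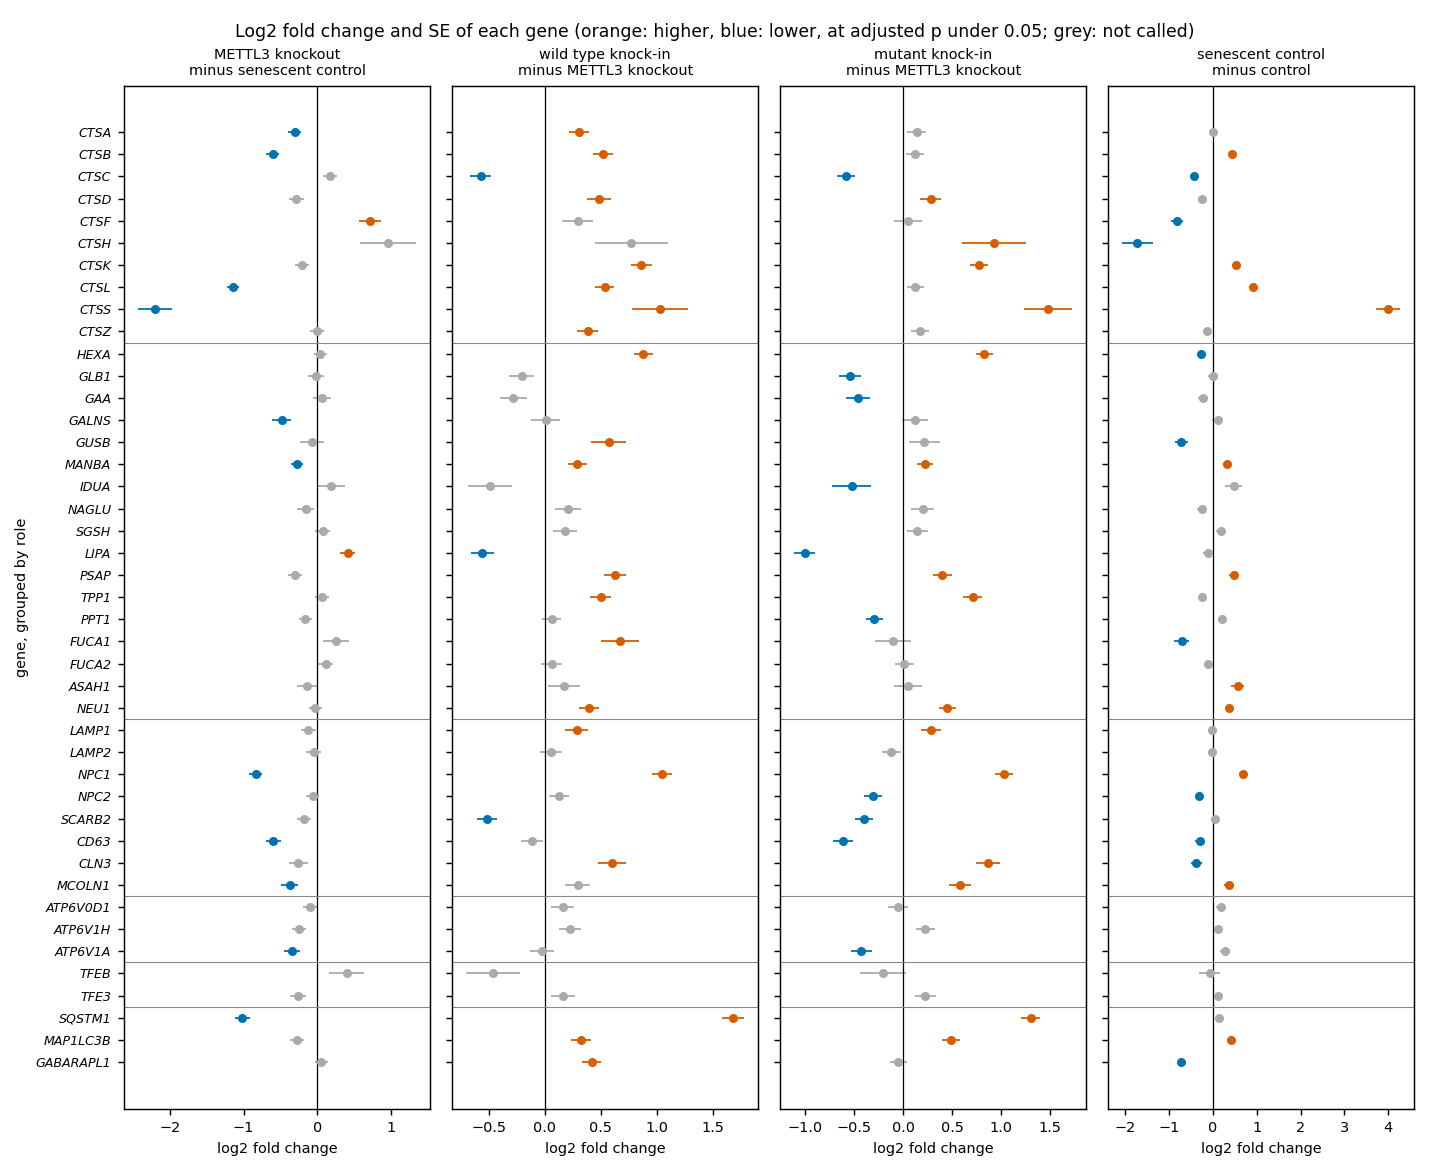
Log2 fold change (points) and its standard error (bars) of the 43 genes, grouped by role, in 4 comparisons, with orange for higher, blue for lower and grey for not called at adjusted p under 0.05; the horizontal axes differ between panels. Most points of the wild type knock-in minus METTL3 knockout panel lie right of 0, with SQSTM1 farthest at 1.68, and CTSS is lowest in the METTL3 knockout minus senescent control panel at -2.20.

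Cathepsins are lysosomal proteases. CTSL, a cysteine protease, had 71.7 and 68.2 CPM in the mutant knock-in, 93.7 and 92.2 CPM in the wild type knock-in, 62.9 and 65.5 CPM in the METTL3 knockout, 144 and 140.1 CPM in the senescent control, and 78.5 and 72.6 CPM in the control. Both senescent control samples lay above all other samples, and both METTL3 knockout samples lay below all others. CTSL rose by 0.91 ± 0.08 (log2 difference ± SE, adjusted p = 3.8e-06) in the senescent control relative to the control and changed by -1.15 ± 0.08, adjusted p = 3.7e-06, in the METTL3 knockout relative to the senescent control. CTSL rose by 0.53 ± 0.08, adjusted p = 0.000503, in the wild type knock-in over the METTL3 knockout, yet it stayed -0.61 (log2) from the senescent control. In the mutant knock-in its difference from the METTL3 knockout was 0.12 ± 0.09, adjusted p = 0.25.

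CTSB, another cysteine protease and one of the most abundant of these mRNAs per kilobase, had 810.3 and 773 CPM in the mutant knock-in, 1023 and 1064 CPM in the wild type knock-in, 709.9 and 746 CPM in the METTL3 knockout, 1099 and 1109.7 CPM in the senescent control, and 862 and 760.4 CPM in the control. The wild type knock-in and senescent control samples lay above all mutant knock-in, METTL3 knockout and control samples. Its log2 difference was -0.60 ± 0.09, adjusted p = 0.000571 in the METTL3 knockout relative to the senescent control, and 0.52 ± 0.09, adjusted p = 0.000772 in the wild type knock-in relative to the METTL3 knockout. The mutant knock-in differed from the METTL3 knockout by 0.12 ± 0.09, adjusted p = 0.27.

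CTSS, a cysteine protease that is best known from antigen-presenting cells, was rare. Its counts were 70 and 79 in the mutant knock-in, 54 and 73 in the wild type knock-in, 24 and 36 in the METTL3 knockout, 156 and 145 in the senescent control and 13 and 8 in the control. Scaled, these were 4.18 and 5.004 CPM in the mutant knock-in, 3.29 and 3.40 CPM in the wild type knock-in, 1.39 and 1.88 CPM in the METTL3 knockout, 8.55 and 6.62 CPM in the senescent control, and 0.569 and 0.358 CPM in the control. No group overlapped with another, and the order from high to low was senescent control, mutant knock-in, wild type knock-in, METTL3 knockout, control. CTSS had the largest log2 difference of the 43 genes in the senescent control relative to the control, 4.01 ± 0.28, adjusted p = 2.6e-07, and it fell in the METTL3 knockout by 2.20 ± 0.23, adjusted p = 5.5e-05, relative to the senescent control. Its difference between the mutant and the wild type knock-in was not called (0.45 ± 0.22, adjusted p = 0.20). The summed level of 9 leukocyte markers was 8.29 and 11.7 CPM in the mutant knock-in, 6.83 and 4.01 CPM in the wild type knock-in, 3.13 to 3.23 CPM in the METTL3 knockout, 3.70 to 3.84 CPM in the senescent control and 1.18 to 1.70 CPM in the control. CD3E had no reads in any sample, 6 of the 9 markers were below 1 CPM in every sample, and PTPRC reached 5.89 CPM. The part of these transcripts in the level of CTSS was not tested.

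CTSK, a collagen-cleaving protease, had 50.8 and 50.4 CPM in the mutant knock-in, 51.6 and 56.2 CPM in the wild type knock-in, 28.98 and 30.4 CPM in the METTL3 knockout, 35.4 and 32.9 CPM in the senescent control, and 24.7 and 22.6 CPM in the control. Both knock-ins lay above every other sample, and the control samples were lowest. Its log2 difference from the METTL3 knockout was 0.77 ± 0.09, adjusted p = 4.0e-05, in the mutant knock-in and 0.86 ± 0.09, adjusted p = 3.3e-05, in the wild type knock-in, while the METTL3 knockout differed from the senescent control by -0.20 ± 0.09, adjusted p = 0.18.

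CTSF and CTSH moved the other way in senescence. CTSF, a cysteine protease, had 4.88 and 5.98 CPM in the senescent control and 10.1 and 9.14 CPM in the control, a fall by 0.82 ± 0.14, adjusted p = 0.000639, and it had 8.49 and 9.44 CPM in the METTL3 knockout. CTSH, an aminopeptidase with the lowest level per kilobase of the 43 genes, had counts of 15 and 16 in the senescent control and 66 and 50 in the control. The senescent control samples were the lowest of all 10 samples for both genes. CTSC, the dipeptidyl peptidase that activates serine proteases of immune cells, had 142 and 139 CPM in the mutant knock-in, 138 and 145 CPM in the wild type knock-in, 208 and 214 CPM in the METTL3 knockout, 174 and 199.6 CPM in the senescent control, and 252 and 254 CPM in the control. CTSC was lower in both knock-ins than in any other group, by -0.59 ± 0.09, adjusted p = 0.000222, in the mutant knock-in and -0.57 ± 0.09, adjusted p = 0.000474, in the wild type knock-in relative to the METTL3 knockout. CTSA, CTSD and CTSZ, a carboxypeptidase that also protects other enzymes, an aspartic protease and a further carboxypeptidase, differed by at most 0.48 on the log2 scale in any comparison. That largest value, of CTSD in the wild type knock-in relative to the METTL3 knockout (0.48 ± 0.11, adjusted p = 0.0046), had an adjusted p of 0.0586 without METTL3 knockout 1 and 0.0523 without wild type knock-in 2.

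**Figure D3:**
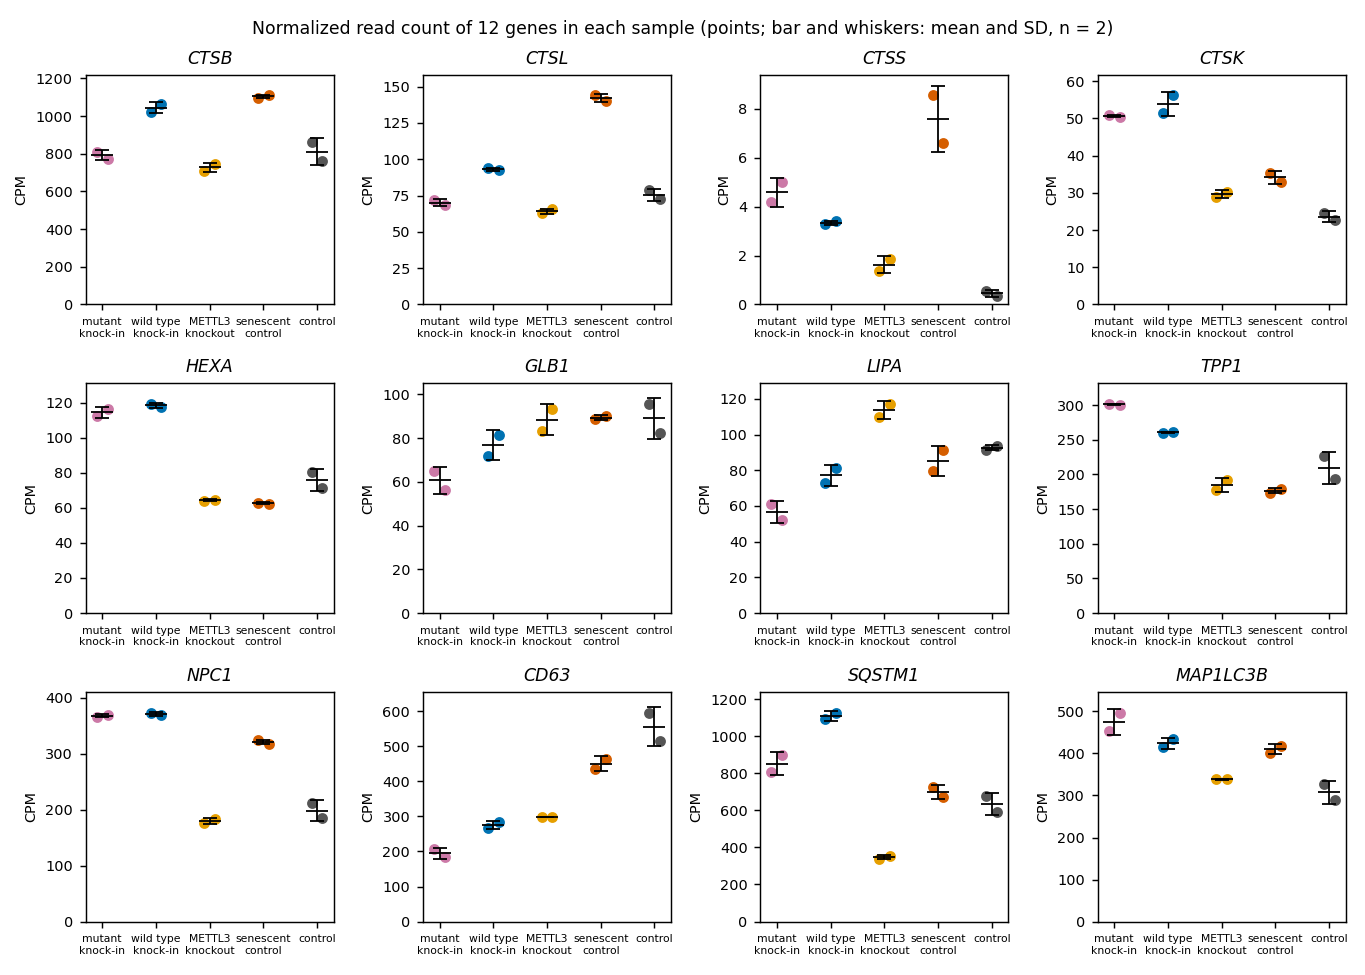
Normalized read count (CPM, axis from 0) of 12 genes in each sample, with points for the 2 samples and a bar with whiskers for mean and SD in the mutant knock-in, wild type knock-in, METTL3 knockout, senescent control and control (left to right). NPC1 and SQSTM1 are low in the METTL3 knockout and higher in both knock-ins, HEXA and CTSK are higher in both knock-ins than in every other sample, and CD63 is lowest in the mutant knock-in at 206 and 184 CPM.

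Among the other hydrolases, HEXA encodes a subunit of β-hexosaminidase, which trims gangliosides. HEXA had 112 and 117 CPM in the mutant knock-in, 119 and 118 CPM in the wild type knock-in, 64.1 and 64.7 CPM in the METTL3 knockout, 63.0 and 62.2 CPM in the senescent control, and 80.3 and 71.5 CPM in the control. The 4 knock-in samples lay above all 6 others, and the METTL3 knockout and senescent control samples lay within 62.2 to 64.7 CPM. HEXA rose by 0.83 ± 0.09, adjusted p = 1.4e-05, in the mutant knock-in and by 0.88 ± 0.09, adjusted p = 1.7e-05, in the wild type knock-in, each relative to the METTL3 knockout, and the METTL3 knockout differed from the senescent control by 0.04 ± 0.09, adjusted p = 0.81. TPP1, a tripeptidyl peptidase lost in a childhood neuronal ceroid lipofuscinosis, had 302 and 301 CPM in the mutant knock-in, 260.2 and 261 CPM in the wild type knock-in, 177 and 191 CPM in the METTL3 knockout, 174 and 179 CPM in the senescent control, and 226 and 193 CPM in the control. TPP1 also was highest in the 4 knock-in samples, and its log2 difference from the METTL3 knockout was 0.71 ± 0.09, adjusted p = 7.9e-05, in the mutant knock-in and 0.50 ± 0.09, adjusted p = 0.0016, in the wild type knock-in. NEU1, the lysosomal sialidase, had 106 and 106 CPM in the mutant knock-in, 98.4 and 105 CPM in the wild type knock-in, 76.3 and 78.7 CPM in the METTL3 knockout, 77.9 and 79.9 CPM in the senescent control, and 64.3 and 58.3 CPM in the control. Its knock-in samples were again the highest and its control samples the lowest, and the mutant knock-in exceeded the METTL3 knockout by 0.45 ± 0.09, adjusted p = 0.00104.

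LIPA, the acid lipase that frees cholesterol from its esters, was highest in the METTL3 knockout. It had 60.9 and 52.2 CPM in the mutant knock-in, 73.0 and 81.3 CPM in the wild type knock-in, 110.0 and 117 CPM in the METTL3 knockout, 79.3 and 91.1 CPM in the senescent control, and 91.6 and 93.8 CPM in the control. The METTL3 knockout samples lay above all others and the mutant knock-in samples below all others, with no overlap with the other groups. LIPA fell by 1.01 ± 0.11, adjusted p = 1.5e-05, in the mutant knock-in and by 0.56 ± 0.11, adjusted p = 0.00159, in the wild type knock-in relative to the METTL3 knockout. It shares 65 exon bases on the opposite strand with IFIT2, an interferon-induced gene that rose by 3.10 ± 0.21, adjusted p = 1.2e-06, in the mutant knock-in relative to the METTL3 knockout.

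GLB1, β-galactosidase, had 65.1 and 56.4 CPM in the mutant knock-in, 71.9 and 81.6 CPM in the wild type knock-in, 83.4 and 93.5 CPM in the METTL3 knockout, 88.6 and 90.1 CPM in the senescent control, and 95.6 and 82.5 CPM in the control. The senescent control and control samples overlapped, with a log2 difference of 0.00 ± 0.11, adjusted p = 0.98, and the mutant knock-in samples were the lowest of all. GLB1 fell by 0.54 ± 0.11, adjusted p = 0.00169, in the mutant knock-in relative to the METTL3 knockout. GAA, which breaks down glycogen, fell by 0.46 ± 0.13, adjusted p = 0.00936, in the same comparison, with 11.3 and 10.4 CPM in the mutant knock-in and 15.0 and 14.9 CPM in the METTL3 knockout.

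PSAP, the precursor of the saposins that present lipids to hydrolases, had 673 and 654 CPM in the mutant knock-in, 769.9 and 783 CPM in the wild type knock-in, 492 and 513 CPM in the METTL3 knockout, 626 and 615 CPM in the senescent control, and 494 and 399.9 CPM in the control. The wild type knock-in was highest, and the METTL3 knockout samples overlapped with those of the control. PSAP rose by 0.63 ± 0.10, adjusted p = 0.000526, in the wild type knock-in relative to the METTL3 knockout and by 0.47 ± 0.10, adjusted p = 0.00229, in the senescent control relative to the control. FUCA1, a fucosidase, had 3.58 and 3.99 CPM in the mutant knock-in, 6.22 and 6.71 CPM in the wild type knock-in, 3.58 and 4.54 CPM in the METTL3 knockout, 3.34 and 3.47 CPM in the senescent control, and 5.82 and 5.37 CPM in the control. Its wild type knock-in samples lay above all others, and it fell by 0.71 ± 0.17, adjusted p = 0.00499, in the senescent control relative to the control. GUSB, β-glucuronidase, had 6.20 and 7.12 CPM in the senescent control and 11.9 and 10.1 CPM in the control, a fall by 0.72 ± 0.15, adjusted p = 0.00193. MANBA, β-mannosidase, rose by 0.33 ± 0.08, adjusted p = 0.00712, in the senescent control relative to the control. NAGLU and SGSH, which act on heparan sulfate, and FUCA2, a further fucosidase, were called in none of the 7 comparisons. Log2 differences of the remaining 4 hydrolases ranged from -0.53 for IDUA, iduronidase, in the mutant knock-in relative to the METTL3 knockout to 0.57 for ASAH1, acid ceramidase, in the senescent control relative to the control, where the control samples had 93.2 and 137 CPM. The others are GALNS, a sulfatase of keratan sulfate, and PPT1, a thioesterase that shares 1189 exon bases on the opposite strand with CAP1, an abundant gene that itself fell by 0.81 ± 0.08, adjusted p = 1.2e-05, in the mutant knock-in relative to the METTL3 knockout.

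NPC1, the membrane protein that carries cholesterol out of the lysosome, had 366 and 369.7 CPM in the mutant knock-in, 374 and 369 CPM in the wild type knock-in, 176 and 184 CPM in the METTL3 knockout, 324 and 318 CPM in the senescent control, and 212 and 185 CPM in the control. The METTL3 knockout samples lay below all others, the control samples came next, and the senescent control lay below both knock-ins. NPC1 fell by 0.83 ± 0.09, adjusted p = 6.3e-05, in the METTL3 knockout relative to the senescent control. It rose by 1.03 ± 0.09, adjusted p = 3.3e-06, in the mutant knock-in and by 1.04 ± 0.09, adjusted p = 6.4e-06, in the wild type knock-in relative to the METTL3 knockout. The mutant and the wild type knock-in differed by -0.01 ± 0.09, adjusted p = 0.94. NPC2, its soluble partner, did not follow. It had 89.9 and 83.2 CPM in the mutant knock-in, 115 and 118 CPM in the wild type knock-in, 109 and 105 CPM in the METTL3 knockout, 110.5 and 113 CPM in the senescent control, and 146 and 133 CPM in the control. The mutant knock-in samples were lowest, with a fall by 0.37 ± 0.09, adjusted p = 0.00381, relative to the senescent control.

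CD63, a tetraspanin of late endosomes and lysosomes that also marks exosomes, had 206 and 184 CPM in the mutant knock-in, 268 and 284 CPM in the wild type knock-in, 298 and 299 CPM in the METTL3 knockout, 436 and 465 CPM in the senescent control, and 597 and 517 CPM in the control. Each group lay below the group named after it, without overlap. CD63 fell by 0.59 ± 0.10, adjusted p = 0.00133, in the METTL3 knockout relative to the senescent control and by 0.61 ± 0.10, adjusted p = 0.000301, in the mutant knock-in relative to the METTL3 knockout. The wild type knock-in differed from the METTL3 knockout by -0.12 ± 0.10, adjusted p = 0.40. SCARB2, a lysosomal membrane protein also known as LIMP-2, had 202 and 187 CPM in the mutant knock-in, 174 and 184 CPM in the wild type knock-in, 251 and 261 CPM in the METTL3 knockout, 280.4 and 299 CPM in the senescent control, and 263 and 294 CPM in the control. Its knock-in samples were lower than all others. Its fall relative to the METTL3 knockout was 0.40 ± 0.09, adjusted p = 0.00345, in the mutant knock-in and 0.52 ± 0.09, adjusted p = 0.00108, in the wild type knock-in.

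LAMP1 and LAMP2, the main glycoproteins of the lysosomal membrane, differed little. LAMP1 had 573 and 586 CPM in the mutant knock-in, 572 and 587 CPM in the wild type knock-in, 464 and 488 CPM in the METTL3 knockout, 496 and 539.6 CPM in the senescent control, and 575 and 471 CPM in the control. LAMP2 had 223 and 224 CPM in the mutant knock-in, 256 and 248 CPM in the wild type knock-in, 239.8 and 247 CPM in the METTL3 knockout, 241 and 262 CPM in the senescent control, and 231 and 277 CPM in the control. LAMP2 was called in none of the 7 comparisons. The log2 difference of LAMP1 was 0.28 ± 0.10, adjusted p = 0.0486, in the wild type knock-in relative to the METTL3 knockout. That call was lost in 13 of the 18 settings, including the removal of any 1 sample other than a control sample (adjusted p 0.0801 to 0.28 there). CLN3, the membrane protein of Batten disease, had 33.3 and 38.1 CPM in the mutant knock-in, 30.0 and 29.5 CPM in the wild type knock-in, 20.7 and 18.6 CPM in the METTL3 knockout, 24.6 and 22.3 CPM in the senescent control, and 33.4 and 27.4 CPM in the control. CLN3 rose by 0.86 ± 0.12, adjusted p = 0.000126, in the mutant knock-in and by 0.60 ± 0.12, adjusted p = 0.00269, in the wild type knock-in, relative to the METTL3 knockout, whose samples were the lowest. MCOLN1, the lysosomal calcium channel, had 37.0 and 39.1 CPM in the mutant knock-in and 26.9 and 24.1 CPM in the METTL3 knockout, a rise by 0.58 ± 0.11, adjusted p = 0.00121.

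Of the 3 V-ATPase subunits, ATP6V1A, which holds the catalytic sites, had 145 and 151 CPM in the mutant knock-in, 195 and 196 CPM in the wild type knock-in, 196 and 201 CPM in the METTL3 knockout, 245 and 258 CPM in the senescent control, and 183 and 232 CPM in the control. The mutant knock-in samples were lowest and the senescent control samples highest. ATP6V1A fell by 0.43 ± 0.11, adjusted p = 0.00612, in the mutant knock-in relative to the METTL3 knockout. The other two, ATP6V0D1 and ATP6V1H, were called in no comparison. Their log2 differences lay between -0.24 for ATP6V1H in the METTL3 knockout relative to the senescent control and 0.23 for ATP6V1H in the wild type knock-in relative to the METTL3 knockout.

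TFE3 and TFEB themselves were called in none of the 7 comparisons. TFE3 had 129.6 and 139.7 CPM in the mutant knock-in, 125 and 134 CPM in the wild type knock-in, 116 and 114 CPM in the METTL3 knockout, 138 and 139 CPM in the senescent control, and 142 and 113 CPM in the control. TFEB had 3.10 and 2.47 CPM in the mutant knock-in, 2.50 and 2.19 CPM in the wild type knock-in, 2.71 and 3.70 CPM in the METTL3 knockout, 2.36 and 2.51 CPM in the senescent control, and 2.89 and 2.24 CPM in the control. Groups of TFEB overlapped, and its counts ran from 39 to 71 per sample, so that only large differences could have been detected. mRNA levels carry no information on where these factors are in the cell.

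The CLEAR element that these factors bind is centred on an octamer, TCACGTGA, which reads the same on both strands and contains the E-box CACGTG. A 300-base promoter, from 250 bases before to 50 bases after the start, was matched by symbol in the RefSeq table of GRCh38.p14 for 31 of the 43 genes. None was matched for LAMP2, CTSB, CTSK, CTSS, HEXA, MANBA, NAGLU, SGSH, PSAP, ATP6V1H, ATP6V1A and ASAH1, which are in neither set compared below. A gene with several promoters was counted as a match if any of them held the motif. The octamer was found in 7 of the 31 genes (22.6%), against 1.18% of all 27305 gene symbols and 0.98% of all 35116 promoters in the table. CACGTG was found in 11 of the 31 (35.5%), against 8.77% of all symbols and 7.26% of all promoters. The 7 are LAMP1, CTSA, GAA, GALNS, CLN3, MCOLN1 and ATP6V0D1, and the E-box alone was found in CTSD, CTSF, CD63 and NEU1. The element is already known from lysosomal genes, so a higher share in a list of such genes is no independent finding. A match is a description of the letters and does not show that a factor binds there. The 4 stretches below, from 200 bases before to 20 bases after the start and read 5′ to 3′ along the gene, are shown because they let the octamer, in capitals, be read beside the values of these genes. LAMP1 and GAA hold it at 2 places.
LAMP1 (chr13:113297039-113297258, plus strand): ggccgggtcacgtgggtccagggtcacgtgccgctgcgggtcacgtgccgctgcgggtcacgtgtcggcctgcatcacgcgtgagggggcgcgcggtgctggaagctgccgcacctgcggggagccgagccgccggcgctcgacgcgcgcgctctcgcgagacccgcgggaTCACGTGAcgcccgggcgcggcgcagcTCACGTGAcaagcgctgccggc
CTSA (chr20:45891135-45891354, plus strand): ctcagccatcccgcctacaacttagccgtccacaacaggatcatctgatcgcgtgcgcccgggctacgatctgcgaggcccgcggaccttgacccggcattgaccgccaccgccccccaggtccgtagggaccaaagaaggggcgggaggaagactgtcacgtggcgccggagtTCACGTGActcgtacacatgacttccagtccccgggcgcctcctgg
GAA (chr17:80101381-80101600, plus strand): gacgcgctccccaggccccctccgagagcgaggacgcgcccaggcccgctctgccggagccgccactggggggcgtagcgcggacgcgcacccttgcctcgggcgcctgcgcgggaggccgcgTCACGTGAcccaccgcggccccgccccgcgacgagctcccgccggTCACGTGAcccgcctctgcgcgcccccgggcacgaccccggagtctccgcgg
GALNS (chr16:88856928-88857147, minus strand): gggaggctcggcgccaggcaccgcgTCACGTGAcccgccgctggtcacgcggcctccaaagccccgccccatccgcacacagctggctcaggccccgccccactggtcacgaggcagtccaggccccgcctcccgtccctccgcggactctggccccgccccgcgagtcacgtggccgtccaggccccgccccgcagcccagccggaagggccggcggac

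In the METTL3 knockout relative to the senescent control, 8.62% of all genes tested were lower and 7.17% higher. Of the 24 genes without the octamer, 4 were called lower and 2 higher, with a median log2 difference of -0.02. Of the 7 with it, 3 were called lower and none higher, with a median of -0.26. Of those 3, CTSA had an adjusted p of 0.0389, GALNS of 0.0213 and MCOLN1 of 0.042, and each lost its call without any 1 sample of either group (adjusted p 0.0605 to 0.32). In the wild type knock-in relative to the METTL3 knockout, 18.5% of all genes tested were higher and 14.8% lower. Of the 24 genes without the octamer, 11 were higher and 3 lower, with a median of 0.31. Of the 7 with it, 3 were higher and none lower, with a median of 0.28. Of the 3, CLN3 kept its call under all settings, while CTSA and LAMP1 lost theirs without any 1 sample of either group (adjusted p 0.0855 to 0.28). In the mutant knock-in relative to the METTL3 knockout, 24.1% of all genes tested were higher and 24.3% lower. Of the 24 genes without the octamer, 7 were higher and 8 lower, with a median of 0.03. Of the 7 with it, 3 were higher and 1 lower, with a median of 0.14. The difference between the 2 sets was not tested.

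**Figure D4:**
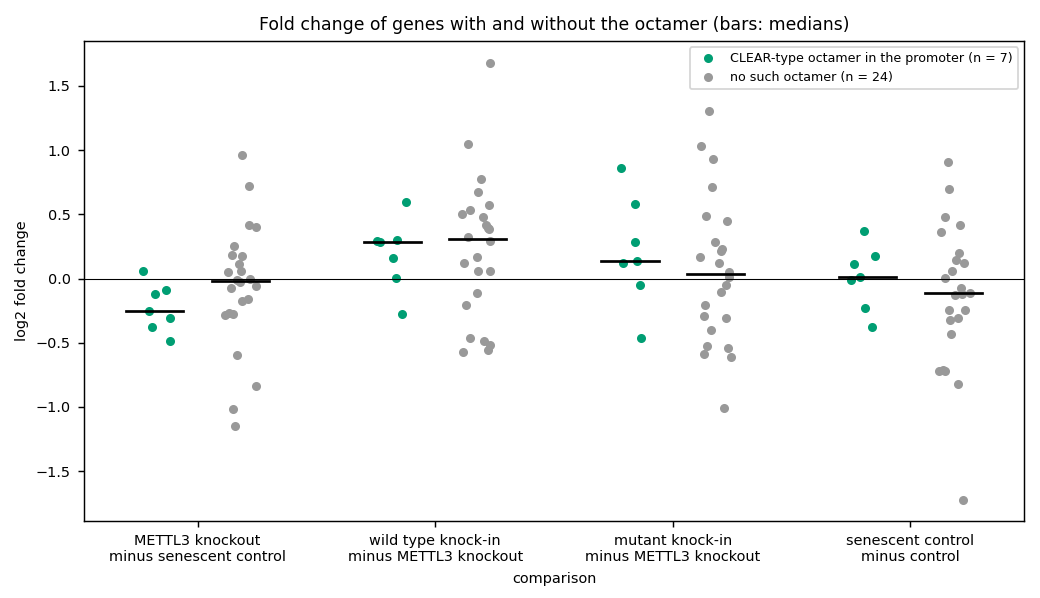
Log2 fold change of the 7 genes with the CLEAR octamer in their promoter (green) and of the 24 with a matched promoter without it (grey) in 4 comparisons; points are genes and bars are medians. The medians of the wild type knock-in minus METTL3 knockout are 0.28 and 0.31, and the points of the 7 genes lie within the range of the 24 others in each of the 4 comparisons.

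SQSTM1, the receptor p62 that links ubiquitinated cargo to the autophagosome, had the largest log2 difference of the 43 genes in the wild type knock-in relative to the METTL3 knockout. It had 808 and 897 CPM in the mutant knock-in, 1091 and 1127 CPM in the wild type knock-in, 339 and 353 CPM in the METTL3 knockout, 725 and 672 CPM in the senescent control, and 675 and 592 CPM in the control. The METTL3 knockout samples lay below all others, and the wild type knock-in samples lay above all others, with the mutant knock-in next. SQSTM1 fell by 1.01 ± 0.10, adjusted p = 2.5e-05, in the METTL3 knockout relative to the senescent control. The senescent control differed from the control by 0.14 ± 0.09, adjusted p = 0.25. It rose by 1.30 ± 0.10, adjusted p = 1.0e-06, in the mutant knock-in and by 1.68 ± 0.10, adjusted p = 3.8e-07, in the wild type knock-in relative to the METTL3 knockout. It shares 20.7% of its exon bases with MRNIP on the opposite strand, whose difference in the wild type knock-in relative to the METTL3 knockout was -0.01 ± 0.12, adjusted p = 0.98.

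MAP1LC3B and GABARAPL1 encode ubiquitin-like proteins that are attached to the autophagosome membrane. MAP1LC3B had 454 and 498 CPM in the mutant knock-in, 415 and 433 CPM in the wild type knock-in, 338 and 339 CPM in the METTL3 knockout, 402 and 419 CPM in the senescent control, and 326 and 289 CPM in the control. Its reads may be shared with the near-identical MAP1LC3B2. Its mutant knock-in samples were highest and its control samples lowest. MAP1LC3B rose by 0.42 ± 0.09, adjusted p = 0.00287, in the senescent control relative to the control and by 0.49 ± 0.09, adjusted p = 0.000865, in the mutant knock-in relative to the METTL3 knockout. GABARAPL1 had 81.3 and 83.9 CPM in the mutant knock-in, 112 and 116 CPM in the wild type knock-in, 85.9 and 84.9 CPM in the METTL3 knockout, 82.5 and 82.0 CPM in the senescent control, and 144 and 126 CPM in the control. Its control samples were highest and its wild type knock-in samples next. It fell by 0.72 ± 0.09, adjusted p = 4.3e-05, in the senescent control relative to the control. mRNA levels do not measure autophagic flux.

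A further 164 genes of the same pathways, in 9 lists, were looked up beside the 43, and 155 of them were tested. In the METTL3 knockout relative to the senescent control 23 of the 155 fell (14.8%) and 8 rose (5.16%), against 8.62% and 7.17% of all genes tested. In the wild type knock-in relative to the METTL3 knockout 40 rose (25.8%) and 11 fell (7.1%), against 18.5% and 14.8%. In the mutant knock-in relative to the METTL3 knockout 37 rose (23.9%) and 39 fell (25.2%), which is near the 24.1% and 24.3% of all genes tested. Over the 18 settings 9 to 52 fell and 2 to 23 rose in the METTL3 knockout relative to the senescent control. Relative to the METTL3 knockout, 21 to 55 rose and 4 to 22 fell in the wild type knock-in, and 27 to 48 rose and 23 to 55 fell in the mutant knock-in. These shares over all genes tested are the background for the list counts that follow in the same comparisons. The list of MiT/TFE factors and mTORC1 nutrient sensing had 19 genes tested. In it 11 rose and none fell in the wild type knock-in relative to the METTL3 knockout (5 to 12 rising and none falling over the 18 settings), and 10 rose and 3 fell in the mutant knock-in (8 to 10 rising and 2 to 4 falling). RRAGD, a Rag GTPase that recruits mTORC1 to the lysosome, had 4.41 and 4.43 CPM in the mutant knock-in, 3.11 and 4.01 CPM in the wild type knock-in, 0.577 and 0.365 CPM in the METTL3 knockout, 1.21 and 0.548 CPM in the senescent control, and 0.175 and 0.403 CPM in the control. It rose by 3.23 ± 0.39, adjusted p = 4.0e-05, in the mutant knock-in and by 2.92 ± 0.40, adjusted p = 0.000169, in the wild type knock-in relative to the METTL3 knockout. Its counts were only 10 and 7 in the METTL3 knockout.

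Of 17 other V-ATPase subunits, 6 fell and none rose in the METTL3 knockout relative to the senescent control (2 to 11 falling over the settings). Of the same 17, 6 rose and 1 fell in the wild type knock-in relative to the METTL3 knockout (3 to 9 rising), against 18.5% higher and 14.8% lower of all genes tested. ATP6V0D2, a subunit known from osteoclasts and macrophages, had 10.7 and 12.5 CPM in the mutant knock-in, 8.66 and 8.21 CPM in the wild type knock-in, 0.635 and 1.199 CPM in the METTL3 knockout, 1.97 and 2.24 CPM in the senescent control, and 0.0438 and 0.0896 CPM in the control. Its knock-in samples lay far above those of the METTL3 knockout, by 3.63 ± 0.24, adjusted p = 4.7e-07, in the mutant and 3.17 ± 0.25, adjusted p = 3.0e-06, in the wild type knock-in. Its counts were only 1 and 2 in the control. CD68, a glycoprotein of the lysosomal membrane that is also a macrophage marker, had 164 and 168 CPM in the mutant knock-in, 152 and 160.3 CPM in the wild type knock-in, 77.0 and 75.9 CPM in the METTL3 knockout, 73.4 and 71.5 CPM in the senescent control, and 73.1 and 65.6 CPM in the control. It rose by 1.12 ± 0.09, adjusted p = 1.6e-06, in the mutant and by 1.03 ± 0.09, adjusted p = 6.0e-06, in the wild type knock-in relative to the METTL3 knockout. The leukocyte marker levels given beside CTSS apply to these 2 genes as well, and their part was not tested. Of 24 other membrane proteins, 11 fell and 5 rose in the mutant knock-in relative to the METTL3 knockout, against 24.3% lower and 24.1% higher of all genes tested. Over the settings 6 to 14 fell.

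Of 28 other hydrolases and activators, 3 rose (10.7%) and 9 fell (32.1%) in the mutant knock-in relative to the METTL3 knockout, where 24.1% of all genes tested were higher and 24.3% lower. In the wild type knock-in 5 rose (17.9%) and 3 fell (10.7%), against 18.5% and 14.8%, shares near the background. Over the settings, 2 to 6 rose and 4 to 12 fell in the mutant knock-in, and 2 to 9 rose and 0 to 6 fell in the wild type knock-in. SORT1, sortilin, which sorts PSAP and other cargo to the lysosome, had 124 and 121 CPM in the mutant knock-in, 175 and 172 CPM in the wild type knock-in, 201 and 218 CPM in the METTL3 knockout, 89.3 and 109 CPM in the senescent control, and 209 and 195 CPM in the control. It fell by 1.02 ± 0.10, adjusted p = 9.0e-06, in the senescent control relative to the control and rose by 1.08 ± 0.10, adjusted p = 3.0e-05, in the METTL3 knockout relative to the senescent control. Of 30 genes of autophagosome formation, 9 rose and 4 fell in the mutant knock-in relative to the METTL3 knockout (3 to 13 rising and 1 to 7 falling over the settings). In the wild type knock-in 7 rose and 1 fell (4 to 10 rising and 1 to 3 falling). The background shares are those given for the hydrolases. UVRAG, which promotes autophagosome and endosome maturation, rose by 1.46 ± 0.11, adjusted p = 8.5e-07, in the mutant and by 1.02 ± 0.11, adjusted p = 2.4e-05, in the wild type knock-in.

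**Figure D5:**
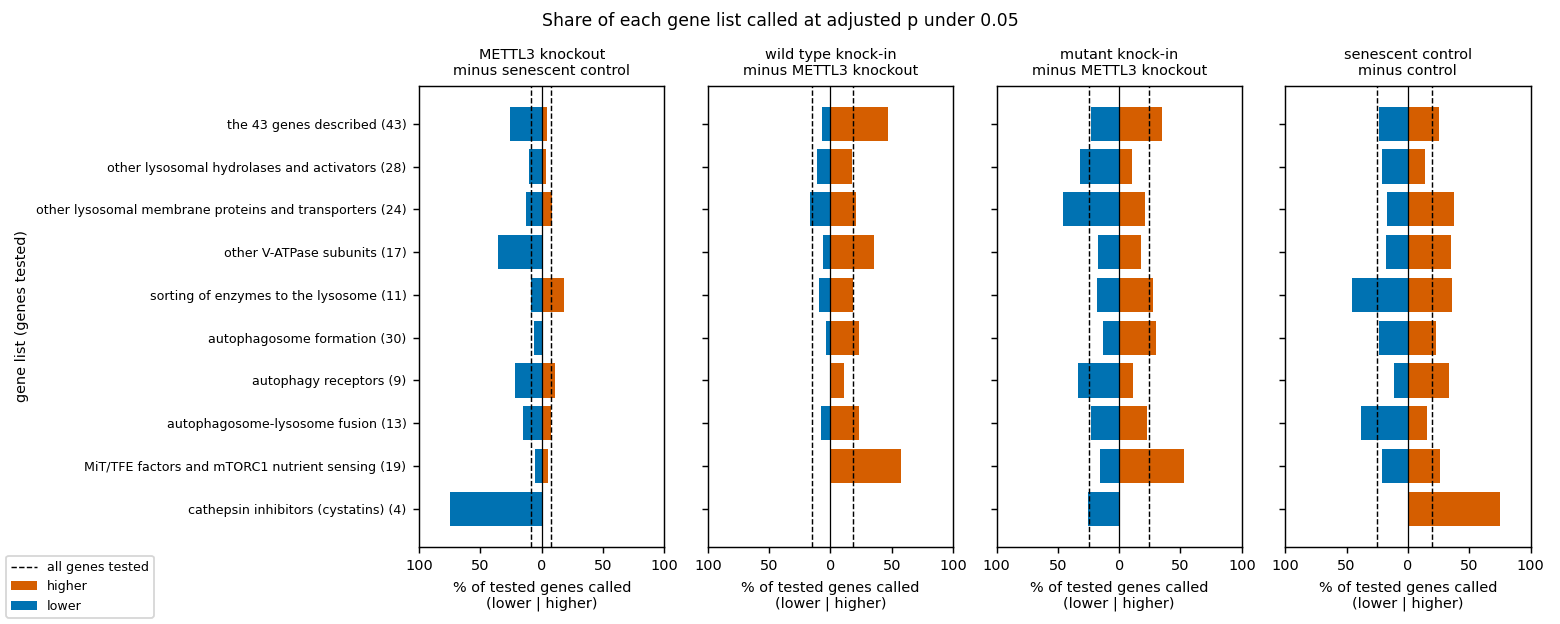
Share of each gene list called higher (orange, right) and lower (blue, left) in 4 comparisons, as a percentage of the genes tested, with dashed lines at the shares over all 16760 genes tested. In the wild type knock-in minus METTL3 knockout panel the 43 genes (20 higher, 3 lower) and the MiT/TFE and mTORC1 list (11 of 19 higher) extend past the dashed line on the right. So do other V-ATPase subunits (35.3%), autophagosome formation (23.3%), autophagosome-lysosome fusion (23.1%) and other membrane proteins (20.8%), where the line is at 18.5%. The remaining lists do not. Lists of 4 to 19 genes move by large steps per gene.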

How the data were processed

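The data are RNA-seq read counts of 10 IMR90 samples, which the titles place in 5 groups of 2. Bowtie2 and RSEM 1.2.12 are named, with hg19 as the build, per the submitters' processing notes. Whole-number counts for 57736 Ensembl gene IDs were deposited by the authors as a single unnormalized table. The sources used here do not give the annotation, the strand setting or how reads mapping to several genes were treated. A symbol was found by Ensembl ID for 51959 of the IDs.

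Testing used edgeR 4.0.16 under R 4.3.3. The low-count filter was filterByExpr (minimum count 10), 16760 genes passed it, and TMM set the library scaling. All 10 samples entered a quasi-likelihood model (glmQLFit, robust) with a coefficient for each group. The 7 comparisons were two-sided, and p-values were adjusted by Benjamini-Hochberg over all genes tested within each. A call is an adjusted p under 0.05. Standard errors were derived from the log2 difference and the F statistic, which pools the spread of all 10 samples. The procedure was tested on counts simulated from the fitted model with 200 genes changed. Far more genes were called in the comparisons here, so that test cannot vouch for these calls. Alternatives were DESeq2 size factors, upper-quartile scaling, removal of METTL3 counts, no filter, the DESeq2 1.42.0 test, only the groups compared, no robust estimation, a replicate block and each sample left out. For the further lists they were chosen after seeing the data. Reads without molecular identifiers are not independent molecules.

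The 43 genes and the 9 further lists were chosen with earlier results of these data known, so their counts are descriptions and no set test was made. Any of the 43 could be named, and of each further list up to 2 genes with the largest rise and 2 with the largest fall among those called. Some results on single genes are not reported here. Promoters come from the RefSeq table of GRCh38.p14, and the first 4 genes of the list that hold the octamer are shown. Exon lengths and overlaps come from a GENCODE annotation of another build than the counts.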

Additional observations from a re-analysis of the deposited data

How the results depend on the processing

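Of 5418 values of the 43 genes under an alternative setting, 4992 kept their direction or stayed uncalled, 266 lost a call, 160 gained one, and no called value changed sign. The background shares given with the main results are of the main test and do not apply to counts under other settings. With each sample left out in turn, the number of the 43 genes called and their median log2 difference ranged as follows. These were 15 to 28 genes and -0.036 to 0.14 in the senescent control relative to the control. They were 6 to 20 genes and -0.18 to -0.11 in the METTL3 knockout relative to the senescent control. They were 13 to 28 genes and 0.18 to 0.29 in the wild type knock-in relative to the METTL3 knockout. They were 18 to 28 genes and 0.069 to 0.15 in the mutant knock-in relative to the METTL3 knockout. They were 0 to 20 genes and -0.18 to -0.062 in the mutant relative to the wild type knock-in. They were 13 to 24 genes and -0.017 to 0.085 in the wild type knock-in relative to the senescent control. They were 18 to 27 genes and -0.075 to 0.0015 in the mutant knock-in relative to the senescent control. A fit of only the 2 groups compared called 25 genes in the METTL3 knockout relative to the senescent control, and gave a median of 0.062 in the senescent control relative to the control. Upper-quartile scaling gave medians of 0.19 in the mutant knock-in relative to the METTL3 knockout, -0.041 in the mutant relative to the wild type knock-in and 0.10 in the mutant knock-in relative to the senescent control. With no filter on low counts the last was -0.060. Over all genes, fits of only the 2 groups called 5621 in the METTL3 knockout relative to the senescent control, against 2646, and 4078 between the knock-ins, against 2103. The cause of these shifts was not tested. Replicate numbers did not pair the samples: over 10 pairs of groups the correlation of same-numbered deviations across genes ran from -0.12 to 0.061, with none above 0.1. With the replicate number as a block, the number of the 43 genes called was 22 in the senescent control relative to the control, 10 in the METTL3 knockout relative to the senescent control, 22 in the wild type knock-in and 22 in the mutant knock-in relative to the METTL3 knockout, 10 between the knock-ins, and 20 in the wild type and 21 in the mutant knock-in relative to the senescent control. With 2 samples a group and rare genes such as CTSH, CTSS and TFEB at counts below 200 per sample, small differences could not be detected. Sensitivity of the further pathway genes was computed after the data had been seen.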

Other observations

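Cystatins inhibit cysteine cathepsins such as CTSB, CTSL and CTSS, and 4 of the listed cystatins were tested. In the senescent control relative to the control 3 rose and none fell (3 to 4 rising over the 18 settings), where 19.7% of all genes tested were higher. In the METTL3 knockout relative to the senescent control 3 fell and none rose (2 to 4 falling), where 8.62% of all genes tested were lower. CST1, a secreted cystatin known from saliva, had counts of 8 and 4 in the mutant knock-in, 5 and 11 in the wild type knock-in, 6 and 11 in the METTL3 knockout, 45 and 57 in the senescent control and 0 and 1 in the control. CST4, a close relative whose reads could be shared with it, had counts of 1 and 3 in the mutant knock-in, 3 and 7 in the wild type knock-in, 2 and 3 in the METTL3 knockout, 24 and 42 in the senescent control and 0 and 0 in the control. Both were highest in the senescent control samples, and neither knock-in differed from the METTL3 knockout at adjusted p under 0.05. At counts this low only large differences could have been detected. The missing calls therefore cannot be set against the rises of the far more abundant CTSB and CTSL in the wild type knock-in. The difference between these genes was not tested.

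Of 11 genes that sort enzymes to the lysosome, 4 rose and 5 fell in the senescent control relative to the control (2 to 5 rising and 3 to 5 falling over the settings), against 19.7% higher and 25.3% lower of all genes tested. SORL1, a sorting receptor related to sortilin, had 8.55 and 9.40 CPM in the senescent control and 26.7 and 21.9 CPM in the control, a log2 difference of -1.43 ± 0.14, adjusted p = 7.5e-06. Of 9 further autophagy receptors, 1 rose and 3 fell in the mutant knock-in relative to the METTL3 knockout (1 to 2 rising and 2 to 4 falling), against 24.1% and 24.3%. BNIP3, a mitophagy receptor, had 25.0 and 25.4 CPM in the mutant knock-in, 32.2 and 34.7 CPM in the wild type knock-in, 39.4 and 39.5 CPM in the METTL3 knockout, 65.5 and 61.4 CPM in the senescent control, and 60.1 and 56.3 CPM in the control, and its log2 difference was -1.33 ± 0.09, adjusted p = 3.8e-07, in the mutant knock-in relative to the senescent control. Of 13 genes of autophagosome-lysosome fusion, 3 rose and 3 fell in the mutant knock-in relative to the METTL3 knockout (3 to 4 rising and 3 to 5 falling), shares near that background. In the wild type knock-in 3 rose and 1 fell (3 to 4 rising and 1 falling), against 18.5% and 14.8%. VPS11, a subunit of the tethering complexes of that step, rose by 1.27 ± 0.09, adjusted p = 9.2e-07, in the mutant knock-in and by 1.03 ± 0.09, adjusted p = 8.5e-06, in the wild type knock-in. Among the membrane transporters, SLC36A1, a proton-coupled amino acid transporter of the lysosome, had 40.7 and 40.9 CPM in the mutant knock-in, 47.7 and 49.1 CPM in the wild type knock-in, 37.6 and 37.4 CPM in the METTL3 knockout, 64.9 and 68.8 CPM in the senescent control, and 47.4 and 41.2 CPM in the control, and it fell by 0.83 ± 0.09, adjusted p = 7.7e-05, in the METTL3 knockout relative to the senescent control.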
